A study of Mus musculus with 6 samples.

Results

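The 10 genes described here encode the machinery of antigen presentation by major histocompatibility complex (MHC) class II molecules in the mouse. They are the chain genes H2-Aa, H2-Ab1 and H2-Eb1, the invariant chain gene Cd74, the peptide-editing genes H2-DMa, H2-DMb1, H2-DMb2, H2-Oa and H2-Ob, and the transactivator gene Ciita. They were chosen by name, and all 10 were found among the 17761 genes of the deposited count table. RNA was measured by RNA-seq in 3 Model and 3 Control samples. By the series' design text, the inferior vena cava was tied off surgically, and 24 h later the vein was collected along with its thrombus, which is read here as the Model group. What was done to the Control animals is not stated, and thrombus is the labelled tissue of all 6 samples. No label gives a genetic alteration, a strain, a sex or an age. Whether the 3 samples of each group stand for 3 animals is not stated either. The p-values therefore rest on the spread among these 6 samples alone, part or all of which could be technical.

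Class II molecules carry peptides of ingested proteins to the cell surface, where helper T cells read them. They are assembled from an alpha and a beta chain on the invariant chain, which fills the peptide groove and guides the complex to endosomes. There the invariant chain is cut down, H2-DM exchanges its last fragment for antigenic peptides, and H2-O restrains H2-DM. Class II genes are expressed mainly by B cells, dendritic cells and macrophages, and their transcription depends on CIITA, which docks on factors bound to 2 promoter elements known as the X box and the Y box.

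The promoters of these genes are shown first, with the shared letters in capitals. Windows from 250 bases before to 50 bases after the annotated start, credited to RefSeq on GRCm38.p6, were used for 7 of the 10 genes. No window was at hand for H2-Ab1 and Ciita, and Cd74 was left out of the search. The windows were searched on both strands for GNAAC, a core of the X box, followed after 20 to 34 bases by ATTGG, the core of the Y box. These letters were chosen after the sequences were seen. They were found in the windows of 5 of the 7 genes, H2-Aa, H2-Eb1, H2-DMb1, H2-Oa and H2-Ob. Of 32851 promoter windows of all genes, 2.5% held the same arrangement, 84.8% held GNAAC alone and 37.4% held ATTGG alone. In the 5 genes the GNAAC began 76 to 94 bases upstream of the start, and the gap to ATTGG was 25 to 28 bases. The stretch of H2-DMb2, whose window held no such pair, is set beside that of its near-identical neighbour H2-DMb1, with capitals at ATTGG only. Each is written 5′ to 3′ in the direction of the gene.
H2-Aa (chr17:34287855-34287916, minus strand): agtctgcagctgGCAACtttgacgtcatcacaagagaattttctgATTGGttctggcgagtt
H2-Eb1 (chr17:34305764-34305824, plus strand): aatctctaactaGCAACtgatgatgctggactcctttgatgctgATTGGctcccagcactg
H2-Oa (chr17:34092291-34092352, plus strand): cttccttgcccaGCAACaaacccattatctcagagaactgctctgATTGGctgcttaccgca
H2-Ob (chr17:34238806-34238864, plus strand): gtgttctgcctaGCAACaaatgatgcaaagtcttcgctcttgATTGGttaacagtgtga
H2-DMb1 (chr17:34153085-34153146, plus strand): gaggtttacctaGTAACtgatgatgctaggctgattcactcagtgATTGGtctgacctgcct
H2-DMb2 (chr17:34145114-34145175, plus strand): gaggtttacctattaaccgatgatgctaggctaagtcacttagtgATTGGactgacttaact
A match to these letters is a description of the reference sequence and does not show that a factor was bound there. The 2 windows of H2-DMa held no such pair. Of the 5 genes with the pair, H2-Aa and H2-Ob fell in the test below, and H2-Eb1, H2-DMb1 and H2-Oa did not pass it. H2-DMa and H2-DMb2, without the pair, both fell. A link between the pair and the changes was not tested.

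Libraries held 25336173 to 28193281 counts in Model and 31924426 to 38118463 in Control, and Pearson correlations of log2 CPM (counts relative to library size) were 0.793 to 0.904 within groups and 0.706 to 0.817 between them. Levels below are CPM after TMM scaling (trimmed mean of M values). The limit that a count of 0 sets was 0.0787 to 0.1184 CPM over the libraries before that scaling, for counting error only. Model 2 held 4760 CPM over 6 liver genes, against 31 to 584 CPM in each of the other 5 libraries. Control 1 had the highest summed level of 11 B cell rows (1820 CPM) and of 8 T cell genes (978 CPM). Results are therefore also given without these 2 libraries. Genes of the vein wall marked both groups: 8 endothelial and smooth muscle genes summed to 2560 to 4380 CPM in Model and 3820 to 5650 CPM in Control. Their single log2 fold changes, Model over Control, ran from -1.58 to 1.82, so the sum hides changes in both directions.

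Transcripts of most class II genes were less abundant in ligated vein with thrombus. In edgeR's quasi-likelihood test, adjusted after Benjamini and Hochberg over 13907 tested genes, 7 of the 10 genes fell and 0 rose, while 1.36% of all tested genes fell and 2.71% rose, 4.07% in all. All 10 genes were tested, 8 of them had an unadjusted p under 0.05, and all 10 had a negative log2 fold change, as did 50.4% of all tested genes. The share of all tested genes under that unadjusted cut is not given, so such counts here and below have no background beside them. Their median log2 fold change was -1.52, against -0.01 over all tested genes, and the single values lay between -2.46 for H2-DMa and -0.69 for H2-Oa. In the same 7 genes every Model library lay below every Control library, an arrangement found at 11.4% of all tested genes (the opposite one at 12.1%). The count was 5 to 7 when any 1 library was left out, and 2 without Control 1 and Model 2 together, when H2-Ab1 and Ciita kept their calls. In these bulk samples, fewer cells of a type and less RNA per cell cannot be told apart.

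**Figure D1:**
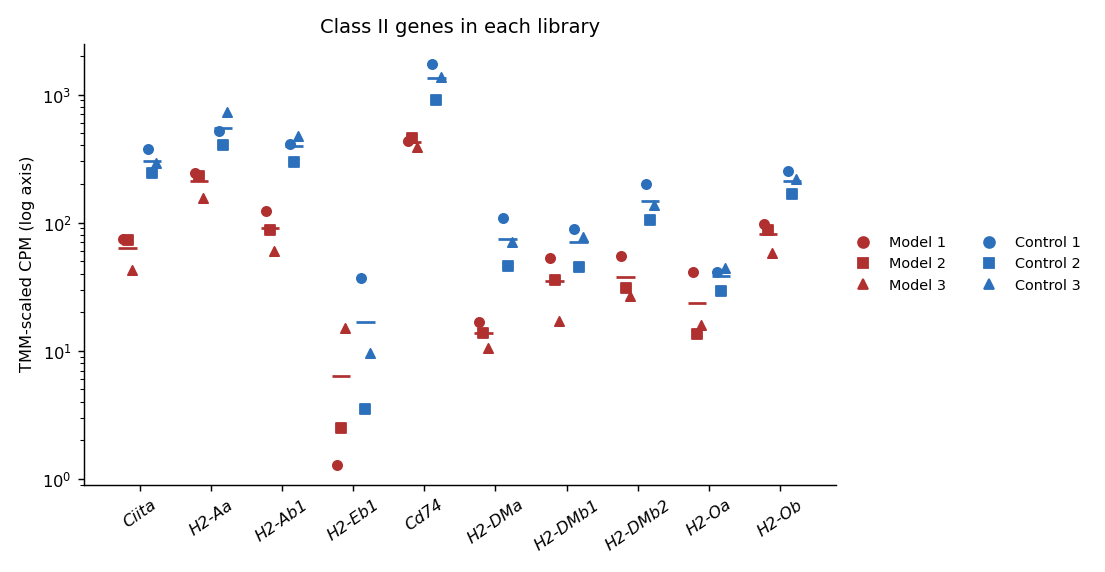
TMM-scaled CPM (log axis) of each class II gene in each library, with Model in red left of Control in blue, marker shape giving the replicate and a horizontal line the mean of 3 libraries. The groups are apart at 7 genes and overlap at H2-Eb1, H2-DMb1 and H2-Oa, and H2-Eb1 has the widest spread within groups.

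The gene of the master regulator itself fell. Ciita (ENSMUSG00000022504, chromosome 16, 10480059 to 10528418 of GRCm38), the transactivator without which class II genes are largely silent, had 74.7, 72.5 and 42.4 CPM in Model 1 to 3, against 377, 246 and 292 CPM in Control 1 to 3. The lowest Control library was more than 3 times the highest Model library. The mean was 63.2 ± 18 CPM in Model and 305 ± 66.5 CPM in Control (SD, n = 3 each), and the log2 fold change was -2.27 (SE 0.29, adjusted p = 0.000869 by edgeR's quasi-likelihood test), or 20.7% of the Control level. Its adjusted p had the lowest value among the 10 genes, and it stayed below the threshold of 0.05 in each of 14 alternative settings. On the annotation, 3.5% of Ciita's exon bases are shared with Dexi on the opposite strand, and the strand setting of the counting is not given in the sources used here.

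Both antigen-binding chains of the A molecule fell. H2-Ab1 (ENSMUSG00000073421, chromosome 17, 34257689 to 34269419), the beta chain, had 124, 88.3 and 60.3 CPM in Model 1 to 3, against 412, 298 and 474 CPM in Control 1 to 3. H2-Aa (ENSMUSG00000036594, chromosome 17, 34282744 to 34287823), its alpha chain partner, had 244, 229 and 155 CPM in Model 1 to 3, against 515, 403 and 736 CPM in Control 1 to 3. At both genes the groups were apart. The log2 fold change was -2.12 for H2-Ab1 (SE 0.31, adjusted p = 0.00183) and -1.40 for H2-Aa (SE 0.29, adjusted p = 0.0162). The ratio of H2-Ab1 to H2-Aa CPM was 0.509, 0.386 and 0.388 in Model and 0.8, 0.739 and 0.645 in Control, with no overlap. An exact two-sided permutation test of this ratio gave p = 0.1, the smallest that 3 against 3 allow (0.15 adjusted over the 3 ratios tested). H2-Ab1 was called in every alternative setting. H2-Aa lost its call without Control 3 (log2 fold change -1.14, adjusted p = 0.0665), without Model 1 (-1.53, 0.0519) and without Model 3 (-1.22, 0.0609).

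H2-Eb1, the beta chain of the E molecule, did not follow the A chains closely. H2-Eb1 (ENSMUSG00000060586, chromosome 17, 34305867 to 34316674) had 1.29, 2.48 and 15.1 CPM in Model 1 to 3, against 37.1, 3.48 and 9.6 CPM in Control 1 to 3. Model 3 and Control 1 stood high, the other libraries low, and the groups overlapped. The log2 fold change was -1.41 with an SE of 1.15 (adjusted p = 0.626), and it was -0.07 without Control 1 and 0.33 without Control 1 and Model 2. Per exon length, the level of H2-Eb1 was 1.03, 2.12 and 19 percent of that of H2-Aa in Model 1 to 3, and 14.1, 1.69 and 2.55 percent in Control 1 to 3. The size of these shares depends on the lengths used, all annotated exons together (1944 bases for H2-Eb1 and 3798 bases for H2-Aa). The neighbouring gene H2-Eb2, a second E beta gene that is not among the 10, had 7.23, 14.7 and 13.6 CPM in Model and 69.2, 33.8 and 44.1 CPM in Control. It fell by 2.05 on the log2 scale (SE 0.52, adjusted p = 0.0466), a call lost without any 1 library (adjusted p from 0.0707 without Control 2 to 0.149 without Control 1), with the replicate number as a block (0.0926) and with limma-voom (0.158). The longest transcripts of H2-Eb1 and H2-Eb2 agreed at 67.1% of aligned bases and shared none of their 50-base stretches.

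Cd74 had the highest mean CPM of the 10 genes in both groups, and it fell. Cd74 (ENSMUSG00000024610, chromosome 18, 60803848 to 60812652), the invariant chain, which is also a receptor for the cytokine MIF, had 436, 456 and 392 CPM in Model 1 to 3, against 1730, 909 and 1370 CPM in Control 1 to 3. The Model libraries lay close together, and all were below the lowest Control. The mean was 428 ± 32.9 CPM in Model and 1340 ± 410 CPM in Control (SD, n = 3 each), and the log2 fold change was -1.64 (SE 0.28, adjusted p = 0.00582). The call held without any 1 library, with adjusted p up to 0.0466 without Model 1, and was lost without Control 1 and Model 2 together (adjusted p = 0.0506). Relative to the summed H2-Aa, H2-Ab1 and H2-Eb1 level, Cd74 was 1.18, 1.43 and 1.7 in Model and 1.79, 1.29 and 1.13 in Control, so the ratio overlapped between groups.

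Among the peptide editors, H2-DMa had the most negative log2 fold change of the 10 genes. H2-DMa (ENSMUSG00000037649, chromosome 17, 34119541 to 34139101), the alpha chain of the H2-DM exchanger, had 16.8, 13.8 and 10.4 CPM in Model 1 to 3, against 109, 45.7 and 70.6 CPM in Control 1 to 3. Control 1 stood highest, and even the lowest Control library was above all Model libraries. The log2 fold change was -2.46 (SE 0.45, adjusted p = 0.00891), or 18.2% of the Control level. On the annotation, 10.4% of its exon bases are shared with Brd2 on the opposite strand, and Brd2 itself was counted at 1.38 to 15.1 CPM in Model and 3.53 to 7.67 CPM in Control. The call was lost without Control 1 and Model 2 together (-2.09, adjusted p = 0.0877) and with limma-voom (-2.38, adjusted p = 0.0717).

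The beta chains of H2-DM come from a pair of neighbouring genes. H2-DMb2 (ENSMUSG00000037548, chromosome 17, 34143307 to 34151555) had 54.5, 31.1 and 26.6 CPM in Model 1 to 3, against 199, 105 and 137 CPM in Control 1 to 3, and the groups were apart. Its log2 fold change was -1.97 (SE 0.36, adjusted p = 0.00898). H2-DMb1 (ENSMUSG00000079547, chromosome 17, 34153072 to 34160230) had 52.8, 35.4 and 17.1 CPM in Model 1 to 3, against 89.9, 44.8 and 77 CPM in Control 1 to 3. Model 1 lay above Control 2, and the test was not passed (log2 fold change -1.01, SE 0.46, adjusted p = 0.307). H2-DMb1 made up 49.2, 53.2 and 39.2 percent of the summed H2-DMb1 and H2-DMb2 level in Model and 31.1, 30 and 36.1 percent in Control, apart in all libraries (exact two-sided permutation test, p = 0.1, the smallest possible, 0.15 adjusted over 3 ratios). The longest transcripts of these genes agreed at 94.6% of 1219 aligned bases, and 26.6% of the 50-base stretches of H2-DMb1 were identical in H2-DMb2. Reads could therefore be shared between them, and their single values are uncertain.

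The chains of H2-O, the inhibitor of H2-DM that is best known from B cells, were uneven. H2-Ob (ENSMUSG00000041538, chromosome 17, 34238903 to 34254414), the beta chain, had 97.1, 87.3 and 58 CPM in Model 1 to 3, against 251, 166 and 219 CPM in Control 1 to 3. Every Model library was below every Control library, the log2 fold change was -1.39 (SE 0.28, adjusted p = 0.0148), and the call was lost without Model 3 (-1.20, adjusted p = 0.0522). H2-Oa (ENSMUSG00000024334, chromosome 17, 34092340 to 34095234), the alpha chain, had 41.1, 13.6 and 16 CPM in Model 1 to 3, against 40.9, 29.2 and 44 CPM in Control 1 to 3. Model 1 lay within the Control range, and the test was not passed (log2 fold change -0.69, SE 0.53, adjusted p = 0.604). The ratio of H2-Ob to H2-Oa was 2.36, 6.43 and 3.62 in Model and 6.14, 5.69 and 4.97 in Control (exact two-sided permutation test, p = 0.4). On the annotation, 22.8% of the exon bases of H2-Oa are shared with an antisense gene, BC051537.

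Levels were compared between genes as RPKM, the CPM per kilobase of exon, with exon lengths from GENCODE M21. These lengths cover all annotated exons of a gene together. They were 3798 bases for H2-Aa and 2568 bases for H2-Ab1, whose longest protein-coding transcripts have 1128 and 1212 bases. The order of genes depends on this choice of length, and no other was tried. Cd74 was highest in both groups, at 255 ± 19.6 RPKM in Model and 796 ± 244 RPKM in Control (SD, n = 3 each). H2-Aa followed in Model at 55.1 ± 12.5 RPKM, with H2-Ab1 at 35.4 ± 12.5 RPKM. In Control these were 145 ± 44.5 RPKM for H2-Aa and 154 ± 34.9 RPKM for H2-Ab1, which with these lengths did not differ beyond their spread. The next in the order, H2-DMb2 and H2-DMb1, stood at 21.4 ± 8.59 and 20.9 ± 10.6 RPKM in Model, and at 84 ± 27.4 and 42 ± 13.8 RPKM in Control. H2-Oa and H2-Ob, at 16.8 ± 10.8 and 15 ± 3.78 RPKM in Model and 27 ± 5.55 and 39.4 ± 7.99 RPKM in Control, followed, and H2-DMb1 was above H2-Oa in every library except Model 3, where H2-DMb1 had 10.2 RPKM and H2-Oa 11.4 RPKM. Ciita had 6.63 ± 1.89 RPKM in Model and 32 ± 6.98 RPKM in Control, where it stood between H2-Ob and H2-Oa. The lowest were H2-DMa, at 3.96 ± 0.93 RPKM in Model and 21.8 ± 9.2 RPKM in Control, and H2-Eb1, at 3.24 ± 3.95 RPKM in Model and 8.6 ± 9.2 RPKM in Control.

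The class II region of chromosome 17 also holds class I genes, which allows a look at position. Between the start of H2-Oa and the end of H2-Eb2, 15 genes of the table lie within 249073 bases, and 14 were tested. Of these, 6 fell and 0 rose: H2-DMa, H2-DMb2, H2-Ob, H2-Ab1, H2-Aa and H2-Eb2, the last with the unstable call given above. Tap1 and Psmb9, which supply peptides to class I molecules and lie between H2-DMb1 and H2-Ob, did not pass the test. Tap1 had 198, 312 and 279 CPM in Model 1 to 3, against 275, 182 and 243 CPM in Control 1 to 3 (log2 fold change 0.17, SE 0.26, adjusted p = 0.83). Psmb9 had 24.2, 43.5 and 39.5 CPM in Model, against 53.8, 45.5 and 66 CPM in Control (log2 fold change -0.63, SE 0.40, adjusted p = 0.497).

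**Figure D2:**
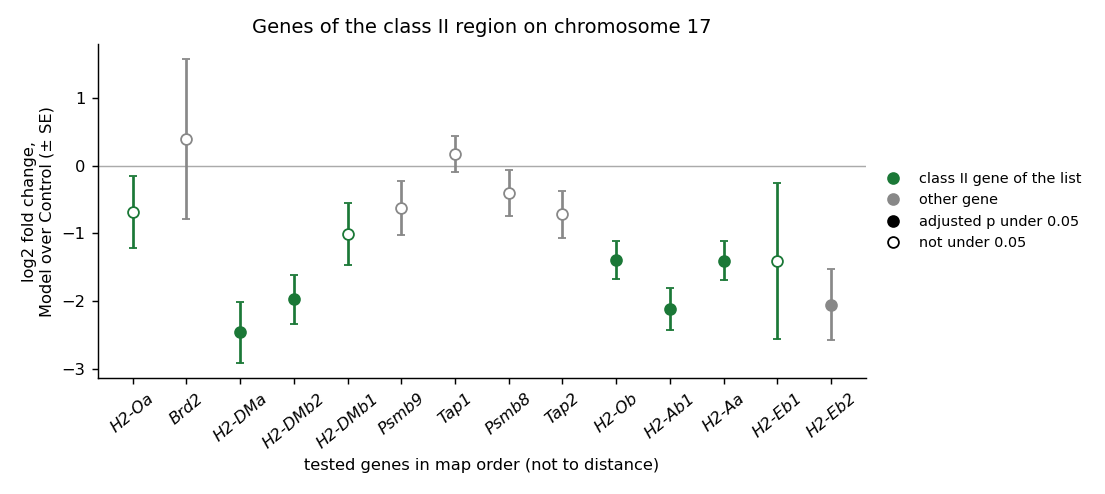
Log2 fold change of Model over Control with its SE for the 14 tested genes from H2-Oa to H2-Eb2 in map order, filled where the adjusted p was under 0.05 and green for the class II genes of the list. The filled points are class II genes on both sides of Psmb9, Tap1, Psmb8 and Tap2, which are open, and the filled grey point is H2-Eb2.

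Of 9 genes of class I presentation, 0 rose and 0 fell in edgeR, DESeq2 or limma-voom, 0 had an unadjusted p under 0.05, and their median log2 fold change was -0.12 (range -0.72 to 0.17). H2-K1, a class I heavy chain, had 1380, 966 and 1070 CPM in Model, against 1380, 847 and 1150 CPM in Control, with overlap (log2 fold change 0.02, SE 0.28), and the sign of its change turned in 4 alternative settings. Nlrc5, the class I counterpart of Ciita, had 360, 346 and 247 CPM in Model, against 672, 245 and 320 CPM in Control (log2 fold change -0.38, SE 0.34, adjusted p = 0.675). Without Control 1 the value was 0.16. The difference between the class II and class I lists was not tested.

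**Figure D3:**
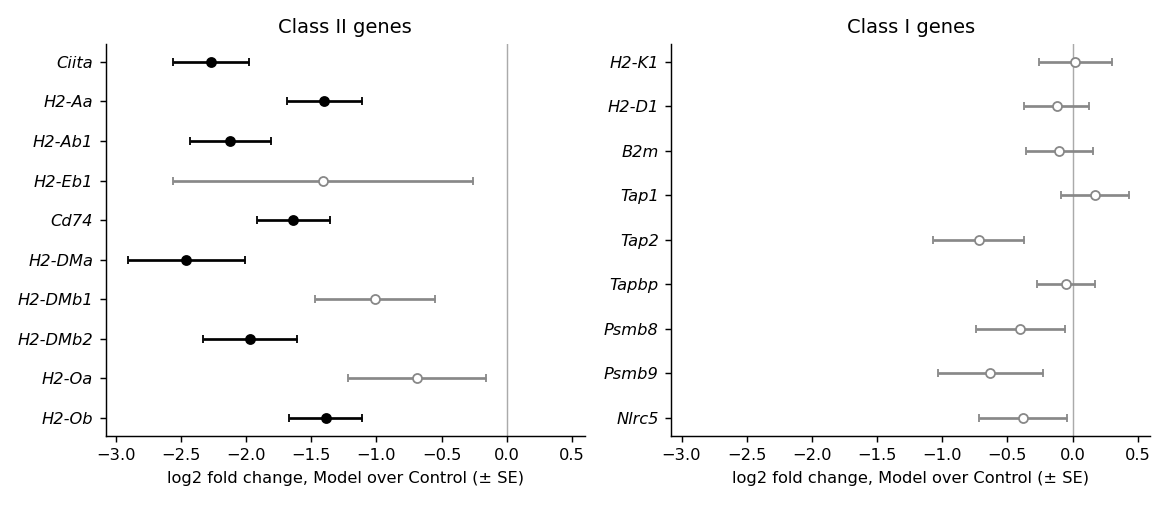
Log2 fold change of Model over Control with its SE for the 10 class II genes (left) and 9 class I genes (right), filled where the adjusted p was under 0.05. The class II values lie between -2.46 and -0.69, and the class I values between -0.72 and 0.17.

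Other genes of the pathway went in both directions. Of 35 such genes with counts, 3 fell and 2 rose, beside 4.07% called among all tested genes, and 10 had an unadjusted p under 0.05. Their median log2 fold change was -0.06. The count of genes that fell was 0 to 3 and that of genes that rose 0 to 2 when 1 library was left out (0 and 0 without Model 1, 1 and 0 without Control 1). None of 7 genes for the factors that bind class II promoters passed edgeR, DESeq2 or limma-voom in either direction, although 2 had an unadjusted p under 0.05. Rfx5, a subunit of the X box factor, had 34, 45.3 and 46.9 CPM in Model, against 89.9, 68.3 and 66.2 CPM in Control, and the groups were apart (log2 fold change -0.83, SE 0.34, adjusted p = 0.249).

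Of 9 genes of the interferon gamma axis and of factors that act on Ciita, 1 fell. Irf8, a transcription factor of B cells, dendritic cells and monocytes, had 58.8, 87.3 and 78.1 CPM in Model, against 416, 160 and 277 CPM in Control (log2 fold change -1.93, SE 0.34, adjusted p = 0.0061). The groups were apart, and the call was lost without Model 1 (-1.79, adjusted p = 0.0508). Irf1, which carries the interferon gamma signal to Ciita, did not pass. It had 74.4, 166 and 116 CPM in Model and 236, 114 and 179 CPM in Control (log2 fold change -0.57, SE 0.34, adjusted p = 0.465). The interferon gamma gene itself was not analysed here.

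Endosomal enzymes that act on the invariant chain and on antigen split in direction. Ctsl, the protease cathepsin L, had 666, 462 and 641 CPM in Model, against 187, 205 and 303 CPM in Control, and rose by 1.35 on the log2 scale (SE 0.27, adjusted p = 0.0138). Lgmn, the asparagine-specific protease legumain, had 274, 262 and 213 CPM in Model, against 73.4, 99.4 and 138 CPM in Control, and rose by 1.27 (SE 0.27, adjusted p = 0.0212). Ifi30, the lysosomal thiol reductase GILT, went the other way, with 46.6, 55.9 and 42.1 CPM in Model against 192, 75.5 and 126 CPM in Control (log2 fold change -1.44, SE 0.35, adjusted p = 0.0388). At all 3 genes the groups were apart. Ctss, cathepsin S, which makes the last cut of the invariant chain in B cells and dendritic cells, had 140, 335 and 187 CPM in Model, against 386, 213 and 396 CPM in Control, and did not pass (-0.59, SE 0.34, adjusted p = 0.444). The call of Ctsl rested on Control 1 (adjusted p = 0.0629 when it was left out) and Model 1 (0.0641). That of Lgmn was lost when Control 1, Control 2, Model 1 or Model 2 was left out (0.0584 to 0.077), and that of Ifi30 when any library other than Control 2 was (0.0628 to 0.152).

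None of 6 genes of class II turnover and restraint passed edgeR, DESeq2 or limma-voom in either direction, with 1 at an unadjusted p under 0.05. March1, the ubiquitin ligase that takes class II off the surface, had 77.1, 86.7 and 42.9 CPM in Model, against 116, 109 and 139 CPM in Control (log2 fold change -0.82, SE 0.31, adjusted p = 0.21). Of 8 genes of the T cell side and of co-stimulation, 1 fell. Cd4, the co-receptor that binds class II, had 40.9, 60.5 and 37 CPM in Model, against 298, 92.5 and 153 CPM in Control (log2 fold change -1.97, SE 0.40, adjusted p = 0.0155). The call was lost when Control 1 (-1.43, adjusted p = 0.0667) or Model 1 (-1.91, adjusted p = 0.0815) was left out. Cd86, a co-stimulatory ligand, had 37.8, 50.9 and 66.8 CPM in Model and 47.6, 37.7 and 58.8 CPM in Control, with overlap (log2 fold change 0.11, SE 0.38). Cd80, the other ligand of CD28, had 33, 30.3 and 25.4 CPM in Model and 2.8, 6.18 and 20.2 CPM in Control. The Cd80 groups were apart, but the test was not passed (log2 fold change 1.60, SE 0.75, adjusted p = 0.327).

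**Figure D4:**
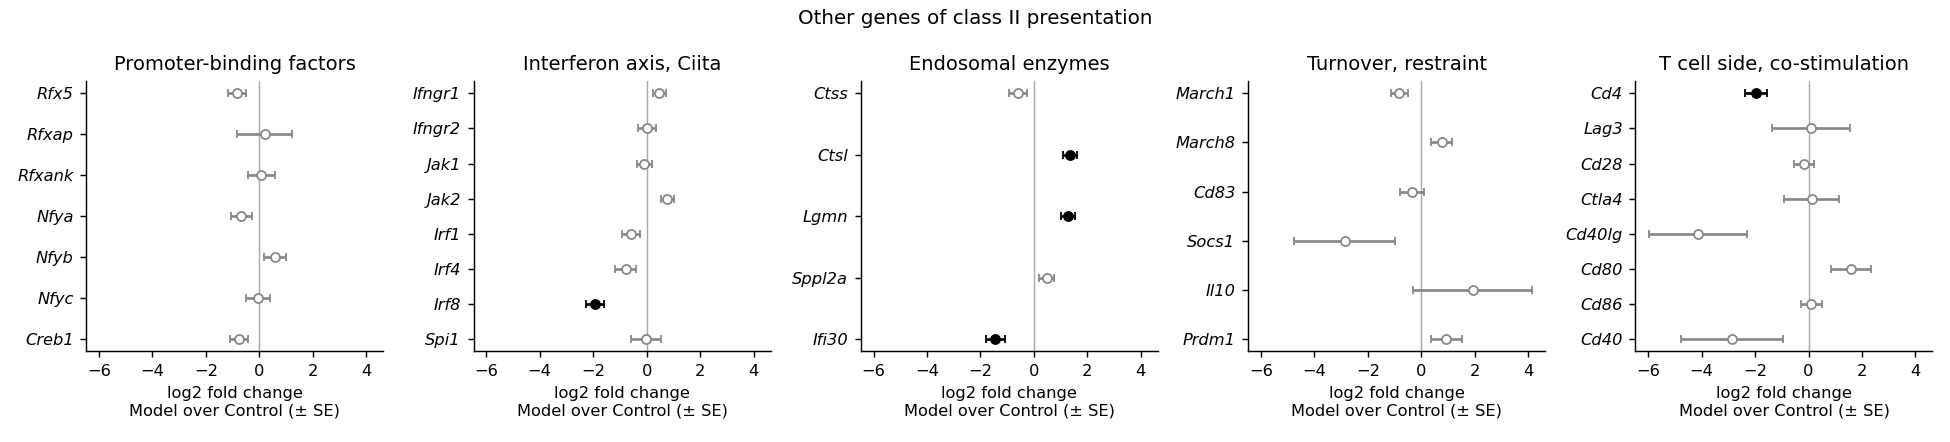
Log2 fold change of Model over Control with its SE for 34 of the 35 other genes of class II presentation in 5 lists, filled where the adjusted p was under 0.05. Irf8, Ifi30 and Cd4 lie to the left of 0 and Ctsl and Lgmn to the right, and the other 29 genes are open.

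Among markers of class II-bearing cells, some of B cells and 1 of dendritic cells fell, while none of resident macrophages passed the test. Of 11 B cell rows, 5 fell (Ms4a1, Cd79a, Bank1, Fcer2a and 1 of 2 rows of Cr2) and 0 rose, with a median log2 fold change of -1.72. Their summed level was 336 to 654 CPM in Model and 1070 to 1820 CPM in Control, and none was at 0 in any library. Ms4a1, which encodes the B cell surface protein CD20, had 23.4, 42.6 and 31.2 CPM in Model, against 146, 78.9 and 106 CPM in Control (-1.77, SE 0.36, adjusted p = 0.0171), a call lost without Control 1 (0.0629) or Model 1 (0.0641). The part of B cells in the class II result was not tested.

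Of 8 dendritic cell genes, 1 fell, Siglech of plasmacytoid dendritic cells, with 4.73, 20 and 13 CPM in Model against 76.5, 58.1 and 103 CPM in Control (log2 fold change -2.65, SE 0.53, adjusted p = 0.0143, and 0.0514 without Control 3). With DESeq2, 3 fell. The summed level of the list was 191 to 278 CPM in Model and 257 to 434 CPM in Control, so the groups overlapped. That overlap rested on Ccr7, a chemokine receptor that T cells also carry, which had 194, 80.4 and 107 CPM in Model and 118, 39.8 and 70.4 CPM in Control (log2 fold change 0.74, adjusted p = 0.428). It was the only gene of the list with a positive value. Without it the summed level was 84.5 to 114 CPM in Model and 218 to 316 CPM in Control, and the groups were apart. Xcr1 and Cd209a were each at 0 in 1 library. Flt3, the growth factor receptor of dendritic cells, had 21.8, 17.7 and 21.6 CPM in Model, against 62.4, 39.4 and 53.4 CPM in Control (-1.35, SE 0.42, adjusted p = 0.108). Zbtb46, a transcription factor of conventional dendritic cells, had 27.3, 50.5 and 55.3 CPM in Model and 80.9, 61.7 and 53.1 CPM in Control (-0.56, SE 0.39, adjusted p = 0.546). Of 10 resident macrophage genes, 9 were tested, and 0 fell and 0 rose in edgeR, DESeq2 or limma-voom, 2 with an unadjusted p under 0.05. Their summed level was 506 to 1150 CPM in Model and 502 to 1050 CPM in Control, and Csf1r was counted at 0 to 6.48 CPM. Lyve1 had 168, 552 and 199 CPM in Model 1 to 3 and 107, 55.8 and 219 CPM in Control 1 to 3. Without Lyve1 the summed level was 338 to 597 CPM in Model and 441 to 834 CPM in Control, and the groups still overlapped.

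The summed level of H2-Aa, H2-Ab1 and H2-Eb1 was also set against these marker sums. Per CPM of B cell markers it was 0.566, 0.634 and 0.688 in Model 1 to 3 and 0.53, 0.655 and 0.892 in Control 1 to 3, and all 3 Model values lay within the Control range. Per CPM of dendritic cell markers it was 1.33, 1.67 and 1.04 in Model and 2.22, 2.74 and 3.21 in Control, with no overlap. Without Ccr7 it was 4.38, 2.89 and 2.03 in Model and 3.05, 3.24 and 3.95 in Control, and the groups overlapped. Per CPM of macrophage markers it was 0.731, 0.278 and 0.39 in Model and 1.76, 1.4 and 1.16 in Control, with no overlap, also when any 1 marker was left out. Without Fcer2a, the B cell ratio was 0.575, 0.661 and 0.721 in Model and 0.615, 0.753 and 1.04 in Control, so that Model 1 lay below the Control range. These ratios depend on which markers stand for a cell type and are given as a description, with no test.

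**Figure D5:**
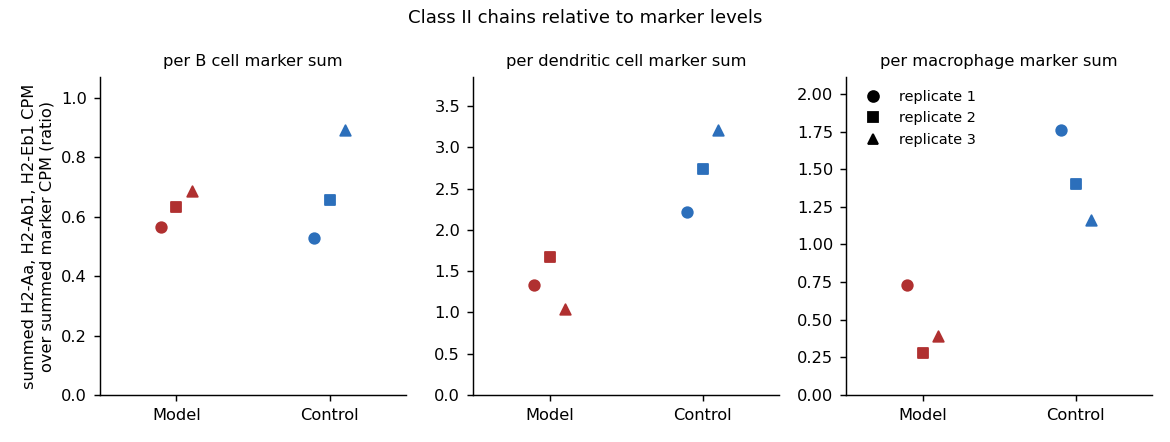
Ratio of the summed CPM of H2-Aa, H2-Ab1 and H2-Eb1 to the summed CPM of B cell, dendritic cell and macrophage markers in each library, with Model in red left of Control in blue. Model lies within the Control range for B cell markers (0.566 to 0.688 against 0.53 to 0.892) and below all Controls for the other 2 cell types, but for dendritic cells only with Ccr7 among the markers (2.03 to 4.38 in Model and 3.05 to 3.95 in Control without it).

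Other cell types moved too. Of 8 T cell genes, 4 fell (Cd3e, Cd8a, Cd8b1 and Bcl11b; 6 with DESeq2 and 0 with limma-voom), and their summed level was 114 to 212 CPM in Model and 366 to 978 CPM in Control. Of 5 tested lymph node genes, 1 fell and 1 rose, 4 had a negative log2 fold change, all 5 had an unadjusted p under 0.05, and with DESeq2 4 fell and 1 rose. Ccl21a, a chemokine of lymphatic vessels and lymph node stroma, had 137, 77.3 and 61.3 CPM in Model, against 463, 219 and 402 CPM in Control (log2 fold change -1.98, SE 0.35, adjusted p = 0.00745). Cxcl13, a B cell chemoattractant, had 250, 548 and 188 CPM in Model, against 79, 31.4 and 44.8 CPM in Control (2.67, SE 0.43, adjusted p = 0.00401). All 7 tested neutrophil genes rose (3 with limma-voom), with summed levels of 2130 to 6370 CPM in Model and 29.1 to 112 CPM in Control. Platelets are a main component of thrombi, and thrombus is the labelled tissue of Model and Control samples alike. All 6 platelet genes rose (3 with limma-voom), with summed levels of 404 to 966 CPM in Model and 49.7 to 147 CPM in Control. Of 6 monocyte genes 3 rose (Plac8, Vcan and Chi3l3) and 0 fell, with summed levels of 528 to 962 CPM in Model and 139 to 290 CPM in Control. The first 2 genes of that list had negative log2 fold changes and overlapping groups, Ly6c2 (-0.89, SE 1.15) and Ccr2 (-0.42, SE 0.58). The part of these shifts in the class II result was not tested.

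The genes whose profile over the 6 libraries was nearest to the mean profile of H2-Aa, H2-Ab1, H2-Eb1 and Cd74 were sought among 10123 genes with a mean of at least 10 CPM. Nearness was the root mean square difference of log2 CPM, each gene centred on its own mean. The 5 nearest were Cd6, a T cell surface receptor (0.15), Irf8 (0.19), Ikzf3, the lymphocyte transcription factor Aiolos (0.23), Zfp386, a zinc finger gene (0.23), and Gsdmd, the pore-forming effector of pyroptosis (0.24). Among these 5, Gsdmd did not pass edgeR's test (adjusted p = 0.0645). The call of Cd6 was lost when any library other than Control 2 was left out (adjusted p from 0.0831 to 0.123) and with limma-voom (0.123). That of Zfp386 was lost without any 1 library (0.0627 to 0.107) and with limma-voom (0.0991). Of the 4 genes that set this profile, Cd74 lay at 0.22, H2-Aa at 0.47, H2-Ab1 at 0.54 and H2-Eb1 at 1.12 from it. H2-Aa, H2-Ab1 and H2-Eb1 thus lay farther from the profile than the 5 nearest genes did. The profile includes H2-Eb1, whose groups overlapped. The profile nearest to that of Ciita, among 13595 genes with a mean of at least 1 CPM, was that of Bank1, a B cell scaffold protein (0.17), which had 65.5, 70 and 35.7 CPM in Model and 272, 169 and 238 CPM in Control. Slc25a53, a mitochondrial carrier gene (0.22), and Adamts10, a secreted metalloproteinase gene (0.24), came next. Neither passed edgeR's test (adjusted p = 0.303 for Slc25a53 and 0.284 for Adamts10).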

How the data were processed

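RNA-seq of 3 Model and 3 Control samples followed rRNA removal, per the labels' protocols. Raw gene counts of the 6 samples were used as the authors deposited them, per the file headers. The table's 6 columns of normalized values were not used. Reads were trimmed with cutadapt 1.9.3 per the labels' protocols, and STAR 2.5.1b, edgeR 3.16.5 and mm10 are listed in the submitters' processing notes. For the counting, its tool, annotation and use of strand were not given in the sources used here, so reads of near-identical or overlapping genes may have been lost or shared.

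The analysis used edgeR 4.0.16 in R 4.3.3. filterByExpr (minimum count 10) kept 13907 genes, TMM scaled the libraries, and the quasi-likelihood test compared 3 Model with 3 Control libraries, two-sided, with Benjamini-Hochberg adjustment over all tested genes and a threshold of 0.05. Each SE is the absolute log2 fold change divided by the root of F. Profiles used log2 CPM with a prior count of 2. The test was checked on simulated data. No libraries were duplicates by a chi-square test of their counts. Positions and exon lengths are from GENCODE M21 (GRCm38), and RefSeq promoters were searched in Python 3.11.15. Alternatives were leaving out libraries, a replicate block, other scalings and filters, DESeq2 1.42.0 and limma-voom (limma 3.58.1). Leaving out 1 marker at a time was added after seeing the data.

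The members and lists were chosen with earlier results of these data known. The text names all members, the pathway genes past the test and some others by role, 4 class I genes, the first 2 genes of each marker list (for most lists only summed levels are printed) and the nearest profiles. A pair of genes this rule covers is not reported here. Siglech, Cxcl13, Brd2, C1qc, Ccr7, Lyve1, H2-Eb2 and the marker genes given by name only were named after their values were seen. Of the listed genes, 4 were not analysed here. Older symbols were used for 4 (March1, March8, Emr1, Chi3l3).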

Additional observations from a re-analysis of the deposited data

How the results depend on the processing

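The count of class II genes that fell was 7 in the reported fit, 5 to 7 without any 1 library, 2 without Control 1 and Model 2 together, 6 with limma-voom and 7 in the other 6 settings, and 0 rose in any. Pathway genes that fell numbered 0 to 3 and those that rose 0 to 2 without any 1 library, and 0 and 0 without Control 1 and Model 2 together. Over the 10 class II genes, 56 of 60 values without 1 library and 73 of 80 values in other settings kept their direction and side of the threshold, and 4 and 6 lost their call. The sign turned for H2-Eb1 without Control 1 and Model 2 (0.33). Near 0, it also turned for H2-K1 (-0.16 without Control 2, -0.15 without Model 1, -0.04 with upper-quartile scaling, -0.01 with no filter, and -0.16 to 0.17 without 1 library), Cd86 (-0.04 without Control 2, -0.12 without Model 3, up to 0.29 without Model 1) and Nlrc5 (0.16 without Control 1, 0.11 without Control 1 and Model 2, down to -0.65 without Control 2). The cause was not tested. Over all genes, 189 fell and 377 rose in the reported fit, 578 and 639 with DESeq2, 469 and 642 without a filter, 115 and 347 with limma-voom, 63 and 222 without Control 1 and Model 2, and 92 to 136 and 221 to 312 without any 1 library. Same-numbered samples deviated from their group means with correlations of 0.15, 0.12 and 0, so the numbers were not taken to pair them. With the replicate block, 7 class II genes fell and 0 rose, 2 pathway genes fell and 2 rose, Ifi30 (adjusted p = 0.0607), H2-Eb2 (0.0926), Cd6 (0.0751) and Zfp386 (0.0583) lost their calls, and not every sample correlated best with its own number. Depth did not keep any class II gene from being tested, and 3 libraries a group limit the precision.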

Other observations

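H2-Eb1 was counted at 32 to 384 reads in Model and 143 to 1309 reads in Control, far fewer than H2-Aa in every library, although both are chains of class II molecules. The library with the highest share of H2-Eb1 relative to H2-Aa was Model 3 in Model and Control 1 in Control. Other genes of this table were also counted low. Brd2, a bromodomain gene of the class II region, had 1.38 to 15.1 CPM in Model and 3.53 to 7.67 CPM in Control, and Csf1r, the receptor of macrophage growth factor, 0 to 0.0404 CPM in Model and 0.0283 to 6.48 CPM in Control, beside 15 to 55.7 CPM in Model and 31.2 to 58.5 CPM in Control for the macrophage gene C1qc. The annotation that the counting used was not seen, and its part in these low values was not tested.

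The CPM of Ciita was 20.2, 22.7 and 18.4 percent of the summed CPM of H2-Aa, H2-Ab1 and H2-Eb1 in Model 1 to 3. It was 39.1, 34.9 and 24 percent in Control 1 to 3, so all Model values lay below all Control values. Ciita is not part of that sum, and the CPM were not scaled for exon length. This ratio was looked at after the values of its genes were seen.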
